A study of Homo sapiens with 10 samples.

Results

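The genes that build and surround the T-cell receptor were examined in RPMI-8402, an established human cell line of T-cell acute lymphoblastic leukaemia. The members were 7 genes, namely CD3E, CD3D, CD3G, CD247, LCK, CD2 and CD7, and they were taken by position as every called region that shared at least 1 bp with any of 5 windows on hg19. CD3E, CD3D and CD3G share a window on chromosome 11 from 118.170 to 118.230 Mb (60 kb), CD247 has chromosome 1 from 167.395 to 167.493 Mb (98 kb), LCK chromosome 1 from 32.712 to 32.757 Mb (45 kb), CD2 chromosome 1 from 117.292 to 117.317 Mb (25 kb) and CD7 chromosome 17 from 80.268 to 80.281 Mb (13 kb). The windows held 82 of the 121294 regions listed on chromosomes 1 to 22 and X. By list these were 9 of 9498 MYC regions of set C, 10 of 18018 MYC peaks of set D, 1 of 895 MYCN peaks, 10 of 13852 H3K4me3 regions, 26 of 39528 H3K27ac regions and 26 of 39503 H3K4me1 regions.

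All libraries came from the same line grown in serum-supplemented medium, with no genetic change or drug named in the labels, and they differ in the antibody and in the set. CUT&RUN, in which an antibody directs a nuclease to cut beside its target so that the released DNA can be sequenced, gave 10 libraries in 4 sets. Set C holds the H3K27ac and H3K4me1 libraries and a MYC library, set D another MYC library, set A MYCN and set B H3K4me3, and the other 4 libraries are IgG controls, which were not used here. Each target has 1 list, except MYC with 2, and both MYC headers name a common signal track, which leaves their independence unsettled. The lists give positions without read counts or scores, so depth is unknown, there is no replicate error, and a place without a called region is only that. No test over samples was possible, and the values are descriptions of these lists.

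As background, the T-cell receptor has no signalling tail of its own and relays antigen binding through the CD3 chains and the CD247 (zeta) chain, whose cytoplasmic motifs are phosphorylated by the kinase LCK. CD2 is an adhesion and costimulatory receptor, and CD7 is a surface protein present from early T-cell precursors onwards and widely used as a marker of T-cell leukaemia. H3K4me3 marks active promoters, H3K27ac active promoters and enhancers, and H3K4me1 mostly enhancers and promoter flanks, while MYC and MYCN bind DNA with MAX and prefer the E-box CACGTG.

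The promoter letters are shown because both factors recognise E-boxes and because the windows differ in whether a factor peak was called. RefSeq promoter sequences (GRCh38.p14, 250 bases before to 50 after a gene's start) were matched for 4 of the 7 genes, with 2 starts for LCK. They are on another build than the peaks and were not placed against them. Capitals mark CANNTG, the general E-box, which reads alike on both strands.
CD3D (chr11:118342656-118342955, minus strand): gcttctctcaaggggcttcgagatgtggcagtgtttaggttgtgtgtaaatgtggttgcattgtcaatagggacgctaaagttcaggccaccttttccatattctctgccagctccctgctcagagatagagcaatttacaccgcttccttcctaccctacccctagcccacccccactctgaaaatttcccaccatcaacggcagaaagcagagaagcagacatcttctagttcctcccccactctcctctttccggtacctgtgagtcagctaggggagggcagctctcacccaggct
CD247 (chr1:167518480-167518779, minus strand): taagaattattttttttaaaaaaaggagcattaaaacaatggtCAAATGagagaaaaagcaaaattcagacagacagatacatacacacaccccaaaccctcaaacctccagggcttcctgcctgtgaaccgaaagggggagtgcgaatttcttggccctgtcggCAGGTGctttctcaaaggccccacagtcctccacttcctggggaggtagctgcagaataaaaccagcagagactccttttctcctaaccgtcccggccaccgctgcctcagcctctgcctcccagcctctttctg
LCK upstream start (chr1:32251015-32251314, plus strand): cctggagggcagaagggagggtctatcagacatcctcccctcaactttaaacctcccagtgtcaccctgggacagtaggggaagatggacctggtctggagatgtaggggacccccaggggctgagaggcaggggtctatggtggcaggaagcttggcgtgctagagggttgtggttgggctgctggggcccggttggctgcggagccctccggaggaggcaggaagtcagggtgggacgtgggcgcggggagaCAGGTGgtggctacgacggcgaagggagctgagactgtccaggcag
LCK downstream start (chr1:32273871-32274170, plus strand): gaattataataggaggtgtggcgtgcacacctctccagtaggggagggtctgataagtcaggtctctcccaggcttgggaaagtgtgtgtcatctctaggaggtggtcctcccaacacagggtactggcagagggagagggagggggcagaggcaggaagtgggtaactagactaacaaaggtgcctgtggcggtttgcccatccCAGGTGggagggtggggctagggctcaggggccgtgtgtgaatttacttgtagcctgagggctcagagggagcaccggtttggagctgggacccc
CD2 (chr1:116754180-116754479, plus strand): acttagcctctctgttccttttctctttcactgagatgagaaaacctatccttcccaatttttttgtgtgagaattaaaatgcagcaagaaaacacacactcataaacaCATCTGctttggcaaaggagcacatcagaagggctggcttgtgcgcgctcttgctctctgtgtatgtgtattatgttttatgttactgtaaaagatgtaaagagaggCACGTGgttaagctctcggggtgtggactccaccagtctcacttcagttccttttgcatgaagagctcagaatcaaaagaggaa
The CACGTG form was found only in CD2 among these 5 sequences, beginning 34 bases before the start, and is itself a form of the general E-box. The general E-box was found in the CD2, CD247 and both LCK sequences and not in that of CD3D. Of all 35116 promoters in the same table, 68.7% hold the general E-box and 7.26% the CACGTG form. The RUNX core, TGTGGT, was present on either strand in the upstream LCK and the CD3D sequences (13.1% of all promoters), and GGAAGT, a form of the ETS site, in CD247 and both LCK sequences (22.8%). AGATAA, a form of the GATA site, was in none of the 5 (10.3% of all promoters). Other forms of the GATA site were not searched for, so this absence holds for these letters only. A match shows letters and not binding. The CD2 promoter was also poor in G and C, at 42.3%, with 15.5% of promoters lower, and the others lay between 49.3% for CD247 and 64.3% for the upstream LCK start.

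The windows differed widely in what was called in them. H3K27ac and H3K4me1 were present in all 5 windows, H3K4me3 in 4, MYC of set C in the same number, MYC of set D in 3 and MYCN in 1. H3K4me3 covered 11.3% of the CD3 window, 7.70% of LCK, 3.52% of CD247, 1.75% of CD2 and none of CD7, compared with 0.668% of the span of chromosomes 1 to 22 and X. H3K27ac had another order, from 18.6% of CD2 through 10.6% of LCK, 7.25% of CD247 and 7.23% of CD3 to 1.25% of CD7, against 0.877% of that span. H3K4me1 covered most in CD7, at 13.6%, and 5.05% or less of each other window, against 0.540% of the span. MYC of set C covered 8.81% of LCK, 5.04% of CD3, 3.38% of CD2 and 2.17% of CD247, against 0.417% of the span. MYC of set D covered 2.89% of LCK, 2.60% of CD3 and 1.48% of CD247, against 0.297%, and MYCN 0.161% of CD247, against 0.00822%. As a share of the window, LCK thus led for both MYC lists and CD2 for H3K27ac. The windows run from 13 to 98 kb, and of these leads only that of LCK in set C remained when counted in bases, with 3965 bp. For H3K4me3, CD3 led by both measures, with 6772 bp against 3465 bp in LCK. In bases, H3K27ac covered most in CD247, with 7109 bp against 4639 bp in CD2. MYC of set D covered most in CD3, with 1563 bp against 1299 bp in LCK. The windows were drawn around genes and the span was not, and how far that accounts for the higher coverage was not tested.

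**Figure D1:**
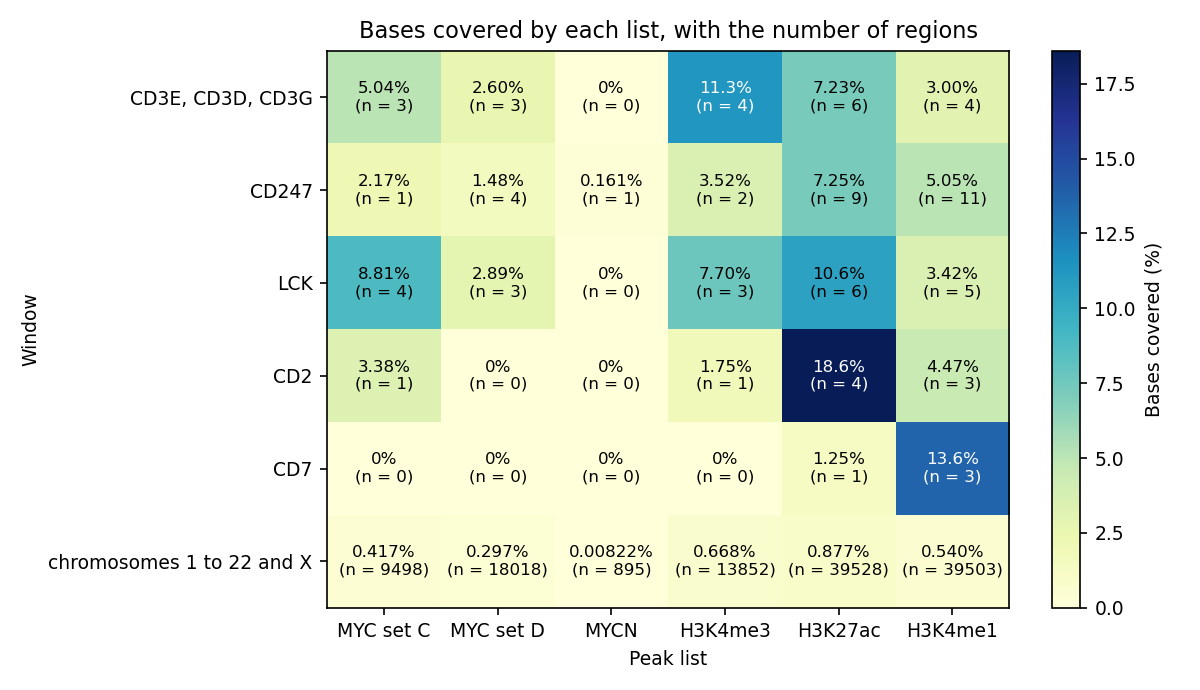
Bases covered (%, colour and upper number) and number of regions (n) for each peak list (columns) in each window and, in the last row, over chromosomes 1 to 22 and X. CD2 has the highest H3K27ac coverage (18.6%), CD7 the highest H3K4me1 coverage (13.6%) with no H3K4me3 or factor region, and MYCN appears only in CD247.

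The CD3 window holds the genes of the epsilon, delta and gamma chains, in the order CD3E, CD3D, CD3G from low to high coordinates, and RefSeq places CD3D on the minus strand. CD3 epsilon pairs with delta and with gamma, and CD3D and CD3G are known to lie head to head. The window had 4 H3K4me3 regions, all with H3K27ac. The lowest, chr11:118175056-118176723 (1668 bp, wider than 64.0% of its list), was matched almost end to end by H3K27ac at chr11:118175041-118176725 (1685 bp, 96.8th percentile of width). MYC was called there in both sets, at chr11:118175066-118176103 in set C and chr11:118175075-118175823 in set D. The set D peak lay wholly inside the set C region.

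A pair of H3K4me3 regions stood in the upper part of the CD3 window, where CD3D and CD3G are. The first, chr11:118210691-118213881, was the widest of the members with 3191 bp (95.3rd percentile). The second, chr11:118214661-118216539 (1879 bp), began 779 bp after it. The MYC lists took different places in this pair. Set C had chr11:118213149-118214284 (1136 bp), which shared 733 bp with the first H3K4me3 region and ran into the gap, and set D had chr11:118214971-118215235 (265 bp), wholly in the second. The 2 calls were 686 bp apart. The H3K27ac regions under them were chr11:118213077-118213772 (696 bp, 62.8th percentile) and chr11:118214769-118215243 (475 bp, 42.8th percentile), so most of the 3191 bp of H3K4me3 was called without H3K27ac.

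Between CD3E and the pair, MYC of both sets met H3K27ac without H3K4me3. Set C had chr11:118187014-118187865 (852 bp), set D had chr11:118187310-118187858 (549 bp) and H3K27ac had chr11:118187319-118187871 (553 bp), and 540 bp were common to set D and H3K27ac. The nearest H3K4me3 was 10290 bp from the set C region. As background, a T-cell enhancer is known downstream of CD3E, and whether this site is that element was not tested. H3K4me1 was called on both sides of it but not on it, at chr11:118186148-118186353 and chr11:118189530-118190018, the nearer 660 bp away. The widest H3K4me1 region of the window, chr11:118209223-118210098 (876 bp, 94.1st percentile), met H3K27ac at chr11:118209427-118210241 (815 bp) just below the H3K4me3 pair, with no factor. The region chr11:118214810-118215040 (231 bp, 27.5th percentile) was the only H3K4me1 region of all 26 that met H3K4me3. No region of any list was called in the 19.2 kb at chr11:118190019-118209222. At the upper edge, H3K4me3 at chr11:118229967-118231123 and H3K27ac at chr11:118229887-118230715 crossed out of the window toward UBE4A, the next protein-coding gene in RefSeq.

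CD247 encodes the zeta chain, which carries more signalling motifs than the other chains. RefSeq places the gene on the minus strand, so its start faces the upper end of the window. H3K4me3 at chr1:167486260-167488009 (1750 bp, 66.8th percentile) and H3K27ac at chr1:167486246-167487836 (1591 bp, 95.8th percentile) stood at that end and shared 1577 bp. Here was the only MYCN peak of the 5 windows, chr1:167487169-167487326 (158 bp, 11.7th percentile of the MYCN list). MYC of set D had peaks on each side of it, chr1:167486750-167487109 (360 bp), which ended 59 bp before it, and chr1:167487597-167487812 (216 bp), which began 270 bp after it. MYCN and MYC therefore shared no base at CD247. Of all 895 MYCN peaks 13 (1.45%) overlap no MYC of either set, and this is 1 of them. MYC of set C was not called at this end, and its nearest region was 60408 bp from the MYCN peak. The 3 factor peaks at this end were below the median width of their lists, at the 39.6th, 8.79th and 11.7th percentiles. The MYCN peak is thus absent when only peaks at or above the median width are kept.

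A second H3K4me3 region lay 60.7 kb lower in the CD247 window, at chr1:167423857-167425557 (1701 bp). It held MYC of both sets, chr1:167424632-167426760 in set C (2129 bp, 93.8th percentile) and chr1:167424737-167425217 in set D (481 bp), and H3K27ac at chr1:167424777-167426045 (1269 bp). The set C region ran past the upper end of H3K4me3 and over H3K4me1 at chr1:167425787-167426155 (369 bp), so that the marks followed each other from H3K4me3 through H3K27ac to H3K4me1. Which transcript, if any, starts there was not tested. Between the 2 H3K4me3 regions, MYC of set D alone was called at chr1:167443415-167443807 (393 bp), inside H3K27ac at chr1:167442755-167443954 (1200 bp) and 17857 bp from H3K4me3. That H3K27ac region met 2 H3K4me1 regions, chr1:167442067-167443238 (1172 bp, the widest H3K4me1 member, 98.1st percentile) and chr1:167443428-167443811 (384 bp). H3K27ac and H3K4me1 also met without a factor at the H3K4me1 regions chr1:167416768-167417794, chr1:167458668-167459057 and chr1:167461855-167462116, the last by 84 bp. Of the 9 H3K27ac regions of the window 3 met no other list, at chr1:167399585-167400063, chr1:167404259-167404472 and chr1:167480958-167481451, each under 500 bp. CD247 had 11 H3K4me1 regions, the most of any window, and no more than 1 MYC region of set C. It is also the longest window. Per 100 kb it had 11.2 H3K4me1 regions, against 23.1 in CD7, 12.0 in CD2, 11.1 in LCK and 6.67 in CD3.

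LCK phosphorylates the CD3 and zeta chains, and it is known to have an upstream (distal) promoter and a downstream (proximal) promoter that is active mainly in immature T cells. RefSeq places it on the plus strand with 2 starts. The window had 3 H3K4me3 regions. The short chr1:32715412-32715667 (256 bp, 9.45th percentile) and chr1:32716640-32717731 (1092 bp) stood 972 bp apart near the lower end, and the wide chr1:32739310-32741426 (2117 bp, 78.9th percentile) lay 21.6 kb above them. The lower pair was joined by a single H3K27ac region, chr1:32715354-32717143 (1790 bp), the widest H3K27ac member (97.6th percentile), and the upper region by chr1:32739094-32740764 (1671 bp, 96.7th percentile). MYC of both sets was called at each site. At the lower site set C had chr1:32715426-32716739 (1314 bp) and set D chr1:32715624-32716002 (379 bp), both with their centres in the gap between the H3K4me3 regions, where H3K4me1 was called too, at chr1:32715807-32716134 (328 bp). At the upper site set C had chr1:32739349-32740428 (1080 bp) and set D chr1:32739468-32739931 (464 bp), both wholly inside H3K4me3 and with the nearest H3K4me1 6584 bp from the set C region. So the 2 acetylated H3K4me3 sites of LCK both held MYC, with H3K4me1 at the lower and none at the upper. The MYCN peak nearest to the window was 66.5 kb away.

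One more LCK site with MYC of both sets had no H3K4me3. Set C had chr1:32713707-32714741 (1035 bp) and set D chr1:32713988-32714443 (456 bp), over a small H3K27ac region, chr1:32714004-32714167 (164 bp, 3.50th percentile), and H3K4me1 at chr1:32713897-32714126 (230 bp). The set C region was 670 bp from the nearest H3K4me3 and the set D peak 968 bp. Between the lower and upper H3K4me3 sites there were 3 H3K27ac regions, chr1:32729435-32729927 (493 bp), 1 of 357 bp and 1 of 282 bp, and 2 H3K4me1 regions, chr1:32730945-32731564 (620 bp) and 1 of 173 bp. Neither factor was called at them. The 15.0 kb at chr1:32741427-32756464 held no region of any list. At the upper edge another set C region, chr1:32756465-32758669 (2205 bp), has its centre outside the window, toward HDAC1, the next protein-coding gene in RefSeq.

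**Figure D2:**
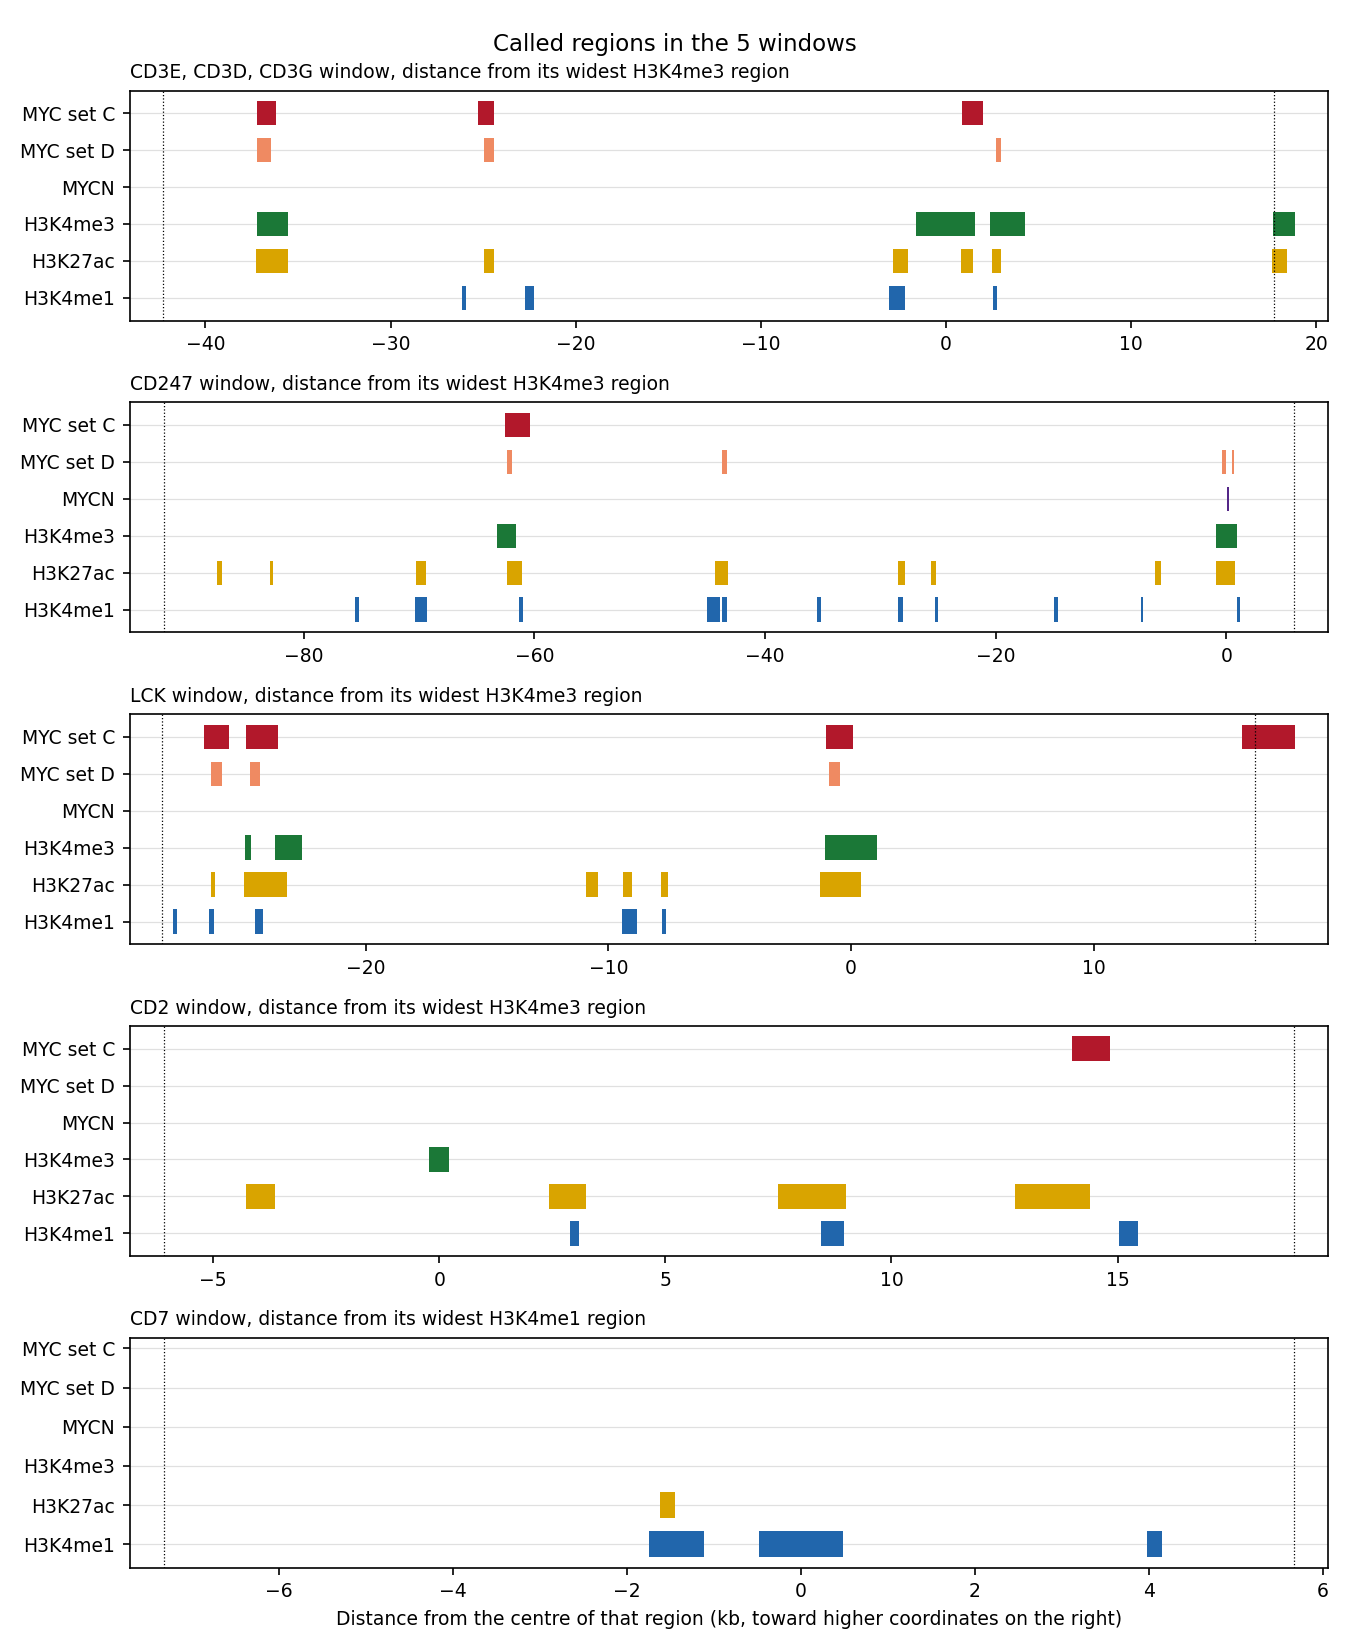
Called regions of the 6 lists (rows) in the 5 windows (panels), drawn to scale by distance in kb from the centre of the widest H3K4me3 region of the window (of the widest H3K4me1 region in CD7, which has no H3K4me3). Dotted lines are the window edges. MYC of both sets stacks on H3K27ac at the lowest CD3 region, at the CD3 site without H3K4me3 and at LCK. In CD247 it does so 60.7 kb below the upper H3K4me3 region. MYCN lies between 2 MYC peaks of set D at CD247, and CD7 has H3K27ac and H3K4me1 only.

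CD2 binds CD58 on partner cells and is one of the earliest T-cell surface receptors. Its window was rich in H3K27ac and poor in H3K4me3. The only H3K4me3 region, chr1:117297877-117298314 (438 bp, 19.3rd percentile), met no other list, with H3K27ac 2206 bp away and the nearest MYC 13768 bp away. H3K4me3 regions that meet none of the other lists make up 14.5% of the whole list. The 4 H3K27ac regions grew wider toward higher coordinates. They were chr1:117293814-117294458 (645 bp), chr1:117300521-117301343 (823 bp), chr1:117305594-117307098 (1505 bp, 94.6th percentile) and chr1:117310822-117312487 (1666 bp, 96.6th percentile). The 2 in the middle each held H3K4me1, chr1:117300995-117301179 (185 bp) and chr1:117306538-117307046 (509 bp). A single MYC region of set C, chr1:117312083-117312927 (845 bp, 16.5th percentile), shared 405 bp with the widest H3K27ac region at the upper end and ended 198 bp before H3K4me1 at chr1:117313126-117313548 (423 bp). RefSeq places CD2 on the plus strand, so this is the side of the gene's end, and as background a locus control region is known downstream of CD2. Whether the MYC region belongs to it was not tested. MYC of set D was not called in the window, and its nearest peak was 178 kb below it. MYCN was not called in it either.

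CD7, alone among the windows, had no H3K4me3 and no factor region. It held H3K4me1 at chr17:80273587-80274214 (628 bp, 85.1st percentile), chr17:80274844-80275809 (966 bp, 95.8th percentile) and chr17:80279307-80279482 (176 bp, 5.33rd percentile). A single H3K27ac region, chr17:80273713-80273875 (163 bp, 3.18th percentile), lay wholly inside the first of these. The nearest H3K4me3, chr17:80290253-80290752 (500 bp), was 9.25 kb above the window, on the side of SECTM1. MYC was nearest at 11.5 kb in set C and 17.1 kb in set D, and MYCN at 36.5 kb, all below the window. As a share of its 13 kb window, the shortest, CD7 thus paired the highest H3K4me1 coverage of the windows with the lowest H3K27ac coverage. In bases its H3K4me1 came to 1770 bp, less than in CD247 (4946 bp) and CD3 (1802 bp). It was more than in LCK (1540 bp) and CD2 (1117 bp). Whether the cells express CD7 was not measured here.

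Across the windows every MYC call shared at least 1 bp with H3K27ac, though the shared part varied, from 164 of the 1035 bp of the lowest LCK set C region and 405 of the 845 bp of the CD2 region to whole peaks. H3K27ac met 9 of the 9 set C regions (exact Clopper-Pearson 95% interval 66.4 to 100%, 78.2% of the whole list) and, in set D, 10 of 10 peaks (69.2 to 100%, 70.7% of the whole list). H3K4me3 met 6 of 9 in set C (65.9% of the whole list) and 7 of 10 in set D (56.0%). H3K4me1 met 3 of 9 in set C (26.6%) and 4 of 10 in set D (28.2%). Regions with none of the 3 histone marks were 0 of 9 in set C (8.10% of the whole list) and 0 of 10 in set D (10.5%), and MYCN met 0 of 9 (6.51%) and 0 of 10 (4.72%). Those counts of 0 allow shares of up to the upper bounds of their exact 95% intervals, 33.6% for 9 regions and 30.8% for 10. Set C was overlapped by set D in 7 of 9 regions (82.5% of the whole list), and set D by set C in 6 of 10 peaks (45.1%). Among the 7 of set C is the region at the upper edge of the LCK window. Its overlaps with set D, H3K27ac and H3K4me3 all lie past that edge, and it counts in the set C shares above. The 2 set C regions without set D were at the CD3D and CD3G pair and at CD2, while set D peaks without set C numbered 4, with 1 at that pair and 3 in CD247. Intervals cover counting error over regions only, and regions of a window are not independent.

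From the side of the promoter mark, 9 of 10 H3K4me3 regions met H3K27ac (55.5 to 99.7%, 66.2% of the whole list) and 9 of 10 met MYC of at least 1 set (76.7% of the whole list). Both exceptions are the same region, that of CD2. These counts rest on overlaps that often miss the centre. When the other list had to cover the centre of the H3K4me3 region, 5 of 10 met H3K27ac and 4 of 10 met MYC. With the H3K4me3 and MYC lists both cut to regions at or above their median width, 3 of 6 met MYC. Against the uncut MYC lists each of those 6 met MYC, as the exception, CD2, is at the 19.3rd percentile of width. The H3K4me3 region that crosses the upper edge of the CD3 window met MYC only in a set D peak past that edge. Set C alone counted, MYC met 6 of 10 (47.9%), and with set D alone 7 of 10 (72.3%). MYC of both sets met 4 of 10 (43.4%), MYCN 1 of 10 (5.10%) and H3K4me1 1 of 10 (14.4%). Of the 26 H3K27ac regions 14 met H3K4me1 (45.3% of the whole list), 8 met H3K4me3 (23.2%), 12 met MYC of at least 1 set (34.6%) and 5 met no other list (30.3%). Of the 26 H3K4me1 regions 15 met H3K27ac (50.4%), 1 met H3K4me3 (5.18%), 5 met MYC of at least 1 set (15.9%) and 11 met no other list (45.0%). The interval of each of the 45 shares computed, which leave out the single MYCN peak, held the share over the whole list. None of these shares thus stands apart from its list at this number of regions. Some are complements of others, such as MYC of at least 1 set and of neither set, so the 45 are not separate comparisons.

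**Figure D3:**
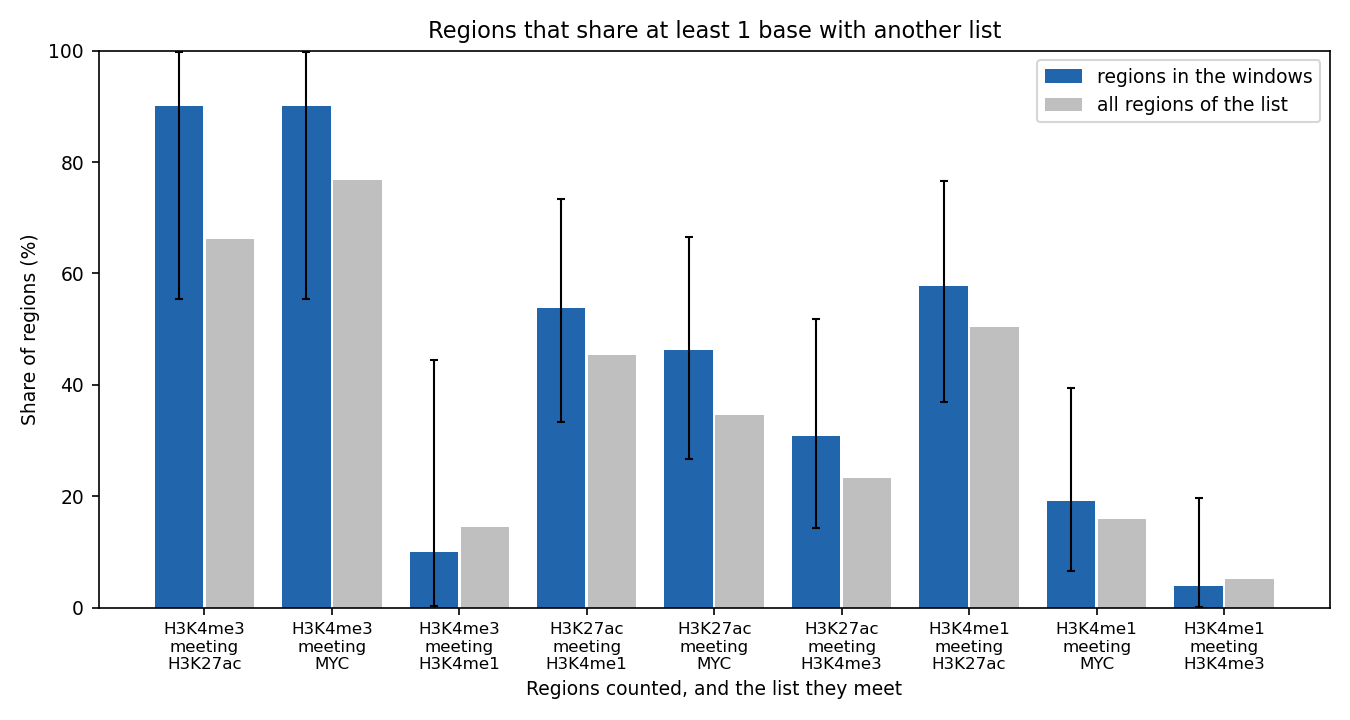
Share of regions (%) that share at least 1 base with another list, for regions in the 5 windows (blue, with exact 95% binomial intervals) and for all regions of the list (grey). H3K4me3 regions in the windows met H3K27ac in 9 of 10 cases, against 66.2% of the list, and the intervals of all pairs drawn span the grey value.

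Widths are given as percentiles within each list, since the callers differ. H3K27ac members had a median percentile of 60.7, and 7 of 26 were at or above the 90th, of which 5 met H3K4me3 and the other 2 were in CD2. H3K4me3 members had a median percentile of 64.5 and H3K4me1 members 54.8, and none of the 4 H3K4me1 regions at or above the 90th met H3K4me3. MYC members were of ordinary width, with median percentiles of 41.4 in set C and 50.3 in set D. When H3K27ac regions were joined across the gap customary for stitching super-enhancers, LCK lay in a stretch of 35.3 kb with 7 regions, rank 338 of 25742 by length, CD2 in 31.6 kb with 5 regions, rank 487, and part of CD247 in 26.5 kb with 4 regions, rank 765. The LCK and CD2 stretches begin below their windows and each count 1 region from there. Joined within 5 kb, CD2 led with a stretch of 12.0 kb and 3 regions, rank 58 of 34944, while LCK fell apart into 3 stretches of at most 3.38 kb, so the order of the genes depended on the gap.

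**Figure D4:**
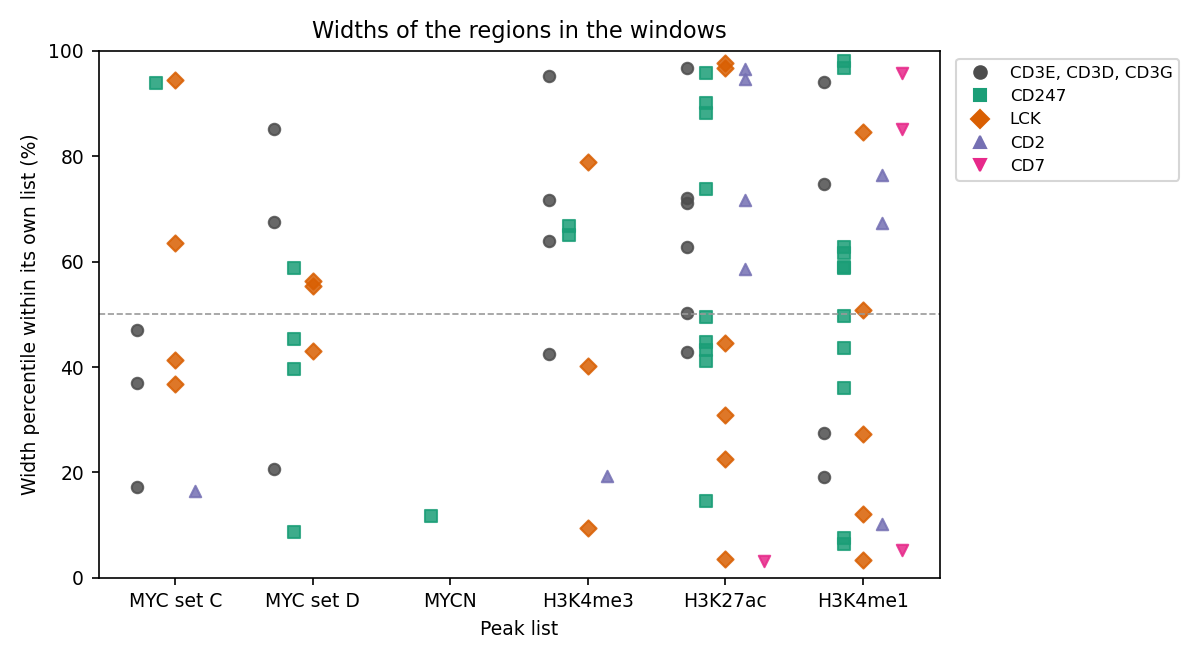
Width of each region in the windows as a percentile within its own list (%), by peak list and by window (marker). The dashed line is the list median. H3K27ac members reach the 97.6th percentile at LCK, while the CD7 region is at the 3.18th and the MYCN peak of CD247 at the 11.7th.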

How the data were processed

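RPMI-8402 CUT&RUN peak lists of 6 libraries were used. The deposited files used here give the start and end of each called region, in bases and on the hg19 build that the submitters' processing notes name. Those notes name MACS2 and SEACR without versions. Per the file headers, the MYCN list holds all peaks at a q below 0.01 from cutruntools, H3K4me3 is from MACS2, set D's MYC also from MACS2 but on unpaired reads, and set C's MYC from SEACR in stringent mode on paired reads. The H3K27ac and H3K4me1 files have no header. The label of set D's MYC library names that library as its own control. The aligner is not given in the sources used here.

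Regions on chromosomes 1 to 22 and X were kept (0 to 53 regions per list left out), and positions are printed 1-based. Overlap means at least 1 shared bp. Shares have exact Clopper-Pearson 95% intervals (Python 3.11.15, scipy 1.17.1, numpy 2.4.6, matplotlib 3.10.9). Coverage was taken over the 2950 Mb between the first and last region of each chromosome. Overlap counting was tested on simulated data (400 of 400 planted overlaps recovered) and gave the counts of bedtools 2.31.1 for 30 of 30 list pairs.

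The members and lists were chosen with earlier results of these data known. By a set rule the text gives coordinates for every factor peak and H3K4me3 region and for the 3 widest H3K27ac and H3K4me1 regions of each window, and a few others singled out after their values were seen. An hg19 gene annotation was not used here, so no distance to a gene start and no second list of T-cell genes is given. RefSeq (GRCh38.p14) was used for names, gene order and promoter sequences.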

Additional observations from a re-analysis of the deposited data

How the results depend on the processing

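Of 59 alternative values for 19 results, 43 stayed within 1.5 times the count or within the interval of the share. Keeping only regions at or above the median width of each list left 3 MYC set C, 5 MYC set D, 0 MYCN, 6 H3K4me3, 15 H3K27ac and 14 H3K4me1 regions in the windows, fewer by construction, and in that setting H3K4me3 regions met MYC in 50%, H3K4me1 in 0% and MYCN in 0% of 6 cases, and H3K4me1 regions met H3K4me3 in 0% of 14. When another list had to cover the centre of a region, H3K4me3 regions met H3K27ac in 50%, MYC in 40.0%, H3K4me1 in 0% and MYCN in 0% of 10 cases, and H3K27ac regions met H3K4me1 in 30.8% of 26. Joining H3K27ac within 5 kb gave 16 stretches in the windows in place of 10. Taking MYC from 1 set alone, the share of H3K4me3 regions with MYC was 60.0 to 70.0%, that of H3K27ac regions 30.8 to 38.5% and that of H3K4me1 regions 11.5 to 15.4%. Placing regions by their centre removed 1 each from MYC set C, H3K4me3 and H3K27ac, and widening the windows by 10 kb gave between 9 and 32 regions for the lists other than MYCN. No paired analysis was possible because the labels give no shared replicate numbers and no result comes from a test. The lists hold no counts, so what depth limits cannot be stated beyond this.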

Other observations

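The surroundings of the windows differed as well. Just past the upper edge of the LCK window stood H3K27ac, H3K4me3 and MYC of set D, beginning 0.142, 0.262 and 0.266 kb above it on the side of HDAC1. Above the CD3 window, a MYC peak of set D at chr11:118230093-118230483 stood 0.092 kb past the edge, in the H3K4me3 region that crosses it on the side of UBE4A. Around CD2 the next H3K4me1 region was 3.66 kb above the window and the next H3K27ac region 10.4 kb below it, while the next H3K4me3 region was 178 kb away and MYC of either set 178 kb or more. CD247 had its next H3K4me3 region 29.3 kb above, at chr1:167522267-167523357, with a MYC peak of set D inside it at chr1:167522767-167523304. The next MYCN peaks were 672 kb from the CD3 window, 213 kb from CD2 and 205 kb from CD247.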
